A study of Mus musculus with 8 samples.

Results

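Serum amyloid A, lipocalin and acute phase genes are described here in primary mouse microglia: Saa1, Saa2, Saa3, Lcn2, Hp, Ptx3 and Cp. The 7 genes were chosen by name with their response to LPS known, and were found by Ensembl identifier through GENCODE vM21 symbols. All 7 were among the 52636 genes of the count table and among the 13847 that passed the filter on low counts. Saa1, Saa2 and Ptx3 passed through their LPS libraries alone, meaning that only that group had all 4 libraries at the cutoff. Because the choice used the LPS response, their differences between the groups are given as a description with no test. The microglia came from wild-type C57BL/6 mice and were shaken off mixed glial cultures of newborn pups. They were kept in DMEM with 10% serum and 10 ng/ml of the growth factor CSF-1, so both groups carried CSF-1. One group received lipopolysaccharide (LPS, a component of the outer membrane of gram-negative bacteria) at 5 µg/ml and the other vehicle, each for 24 h, with 4 libraries per group sequenced as single-end 50-base reads. A shaken-off culture is a model with limits, since the cells grew on astrocytes and have left the brain.

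The acute phase response is the change in secreted plasma proteins that follows infection or injury. Its best known source is the liver, where IL-6 acts through STAT3 and IL-1 and TNF act through NF-kB and C/EBP factors, but macrophages make some of the same proteins. Serum amyloid A proteins are small lipoprotein-bound proteins, and Saa3 is the mouse form known from macrophages. Lipocalin 2 (Lcn2) binds bacterial siderophores and so withholds iron, haptoglobin (Hp) captures free haemoglobin, ceruloplasmin (Cp) is a copper-containing ferroxidase and pentraxin 3 (Ptx3) is a soluble pattern recognition protein.

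Each library held between 20071921 and 30604447 counts. Levels are given as CPM, counts per 1000000 of the library size after TMM scaling. The TMM factors were 1.21 to 1.32 in vehicle and 0.701 to 0.833 in LPS libraries. With library totals alone the median log2 fold change of all tested genes moved by -0.68, and the changes below are relative to the TMM scale. Microglia markers summed to 9102 to 10345 CPM in vehicle and 2582 to 3023 CPM in LPS libraries, and none of the 10 was at 3 counts or fewer in every library. The 10 did not move as one, since edgeR called 7 as lower and 1 as higher (Itgam, 201 to 330 CPM in vehicle and 871 to 1062 CPM in LPS libraries). The groups overlapped for Aif1 and for Tmem119 (6.05 to 16.6 CPM in vehicle and 1.62 to 8.38 CPM in LPS libraries). In such bulk samples fewer cells of a type and less RNA per cell cannot be told apart.

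Saa1, Saa2 and Saa3 lie in one cluster on chromosome 7 (GRCm38), with Saa3 (ENSMUSG00000040026) at chr7:46711998-46715700, Saa1 (ENSMUSG00000074115) at chr7:46740497-46742980, both on the minus strand, and Saa2 (ENSMUSG00000057465) at chr7:46751790-46754313 on the plus strand. Their likeness decides whether a 50-base read can be told apart, so the first 60 coding bases, which lie in exon 2 of 4 in each representative transcript, are shown from the start codon. Capitals mark bases that differ from Saa1 at the same position. They come from GENCODE vM21 at chr7:46742463-46742522 for Saa1, chr7:46752291-46752350 for Saa2 and chr7:46715041-46715100 for Saa3.
Saa1 coding start: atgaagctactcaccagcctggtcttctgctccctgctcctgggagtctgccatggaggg
Saa2 coding start: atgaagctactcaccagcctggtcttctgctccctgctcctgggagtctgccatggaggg
Saa3 coding start: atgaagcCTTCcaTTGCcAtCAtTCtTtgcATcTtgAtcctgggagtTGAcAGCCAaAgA
Saa1 and Saa2 did not differ in this stretch, while Saa3 differed from Saa1 at 28 of the 60 bases. Over the whole coding sequence, Saa1 and Saa2 were 95.1% identical, and Saa1 and Saa3 were 74.3% identical. Of all 50-base windows of the representative Saa1 transcript (609 bases, where the gene has 2478 exonic bases), 13.2% also occurred in Saa2 and 1.61% in Saa3. Only uniquely aligned reads were counted, so reads from such windows could be missing from both genes, and the levels of Saa1 and Saa2 are uncertain. These shares do not bound that uncertainty, since the exonic bases outside the representative transcripts were not scanned. Windows of the representative Lcn2, Hp and Ptx3 transcripts occurred in no other gene's transcript. For Cp, 1.48% of windows overlapped the opposite-strand gene Hps3, and whether the counting used strand is not given in the sources used here.

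The 3 Saa promoters are shown because their genes moved together. They are the parts of RefSeq's windows (GRCm38.p6, 250 bases before to 50 after each gene's start) that lie before the start and in no GENCODE exon, written along each gene's strand. Capitals mark the C/EBP motif TTNNGNAA on either strand, since C/EBP factors are known activators of acute phase genes. The Saa3 stretch is chr7:46715701-46715926, the Saa1 stretch chr7:46742981-46743230 and the Saa2 stretch chr7:46751583-46751789.
Saa3 promoter: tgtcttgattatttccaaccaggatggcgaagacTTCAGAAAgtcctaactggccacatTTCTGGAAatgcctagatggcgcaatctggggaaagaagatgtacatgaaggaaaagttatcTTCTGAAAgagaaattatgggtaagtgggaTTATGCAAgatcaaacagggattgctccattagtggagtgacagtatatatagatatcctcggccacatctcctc
Saa1 promoter: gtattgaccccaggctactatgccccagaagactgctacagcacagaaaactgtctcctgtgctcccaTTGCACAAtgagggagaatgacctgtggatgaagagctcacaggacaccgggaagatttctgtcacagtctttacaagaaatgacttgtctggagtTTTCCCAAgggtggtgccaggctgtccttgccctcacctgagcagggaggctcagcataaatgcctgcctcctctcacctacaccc
Saa2 promoter: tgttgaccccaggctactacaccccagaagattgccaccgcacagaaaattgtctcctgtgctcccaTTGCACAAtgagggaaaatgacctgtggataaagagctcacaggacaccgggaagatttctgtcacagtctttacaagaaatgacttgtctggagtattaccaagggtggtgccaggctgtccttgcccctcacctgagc
Saa3 held 4 matches, Saa1 held 2 and Saa2 held 1. The whole windows of Saa1 and Saa2 were identical at 287 of 301 aligned positions. RefSeq windows were found for 6 of the 7 genes, and each of the 6 held TTNNGNAA, a motif that 40.7% of all 32851 windows hold. The other motifs searched on both strands were rarer. The NF-kB consensus occurred in the Ptx3 window and in 4.51% of all windows, and the AP-1 motif TGANTCA in a Cp window and in 7.81%. The STAT motif TTCNNNGAA (8.3% of all windows) and the type II acute phase element CTGGGAA (11.1%) were in no window of the 6. A match describes letters only and is no evidence of binding.

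Saa3 was the most abundant of the 7 genes in both groups. Its vehicle levels were 1545, 239, 649 and 280 CPM in replicates 1 to 4. Its LPS levels were 32510, 37012, 33159 and 33944 CPM. The groups did not overlap, and the vehicle libraries differed among themselves far more than the LPS libraries did. The fitted difference was 5.65 on the log2 scale (SE 0.64), a 50.4-fold higher level after LPS. By raw count Saa3 ranked first of all genes in LPS replicates 1, 2 and 4 and second in replicate 3, and between 32 and 493 in vehicle libraries. Compared within each replicate number, the fold was 21.0 in replicate 1, 155 in replicate 2, 51.1 in replicate 3 and 121 in replicate 4, and this range follows the vehicle values. Without vehicle replicate 1 the log2 difference was 6.47, over 1.5 times larger on the linear scale.

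Saa1, a liver-type acute phase isoform, was almost absent from vehicle libraries. It had 1, 0, 2 and 0 counts in vehicle replicates 1 to 4 and 270, 416, 567 and 290 counts in LPS replicates 1 to 4, or 15.7 to 26.4 CPM. The groups did not overlap. The pooled ratio was 804 (95% exact conditional interval 274 to 3901, which covers counting error only). Saa2, its near-identical neighbour, had no count in any vehicle library and 22, 43, 61 and 35 counts in LPS replicates 1 to 4. With 3 counts allowed over the vehicle group, Saa2 was 83.8-fold higher after LPS. The lower limit of its 95% exact conditional interval was 67.4. Saa2 counts were 8.15% to 12.1% of the Saa1 counts in each LPS library.

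Saa1 counts were also read against the far more abundant Saa3. There were 0.0378 Saa1 counts per 1000 Saa3 counts over the vehicle libraries and 0.602 over the LPS libraries, with 0.462 to 0.798 in the single LPS libraries. Vehicle replicate 1 held 44130 Saa3 counts and 1 Saa1 count, so Saa1 counts were not a fixed share of Saa3 counts. The cluster spans 42.3 kb and holds 2 further genes that are no members. Saa4, described as the constitutive form in liver, was at 0 in every vehicle library and had 43, 40, 35 and 28 counts after LPS, at least 76.0-fold higher. Like Saa1 and Saa2 it passed the filter through its LPS libraries alone, so no p is given. The pseudogene Saa-ps had 6, 0, 10 and 0 counts in vehicle and 104, 122, 48 and 150 counts in LPS libraries. Per 1000 Saa3 counts, Saa-ps had 0.202 over the vehicle and 0.166 over the LPS libraries, and its origin was not tested. Of 8 other tested genes within 150 kb, edgeR called 5 as higher and 1 as lower (adjusted p under 0.05), where 64.1% of all tested genes were called in either direction. Their log2 fold changes lay between -1.38 (Gm45629) and 2.95 (Ldha, adjusted p = 7.62e-07), all below that of Saa3. Gm45629 was not called, and no p is given since it passed the filter through its vehicle libraries alone. Both genes are named for lying at the ends of that range.

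**Figure D1:**
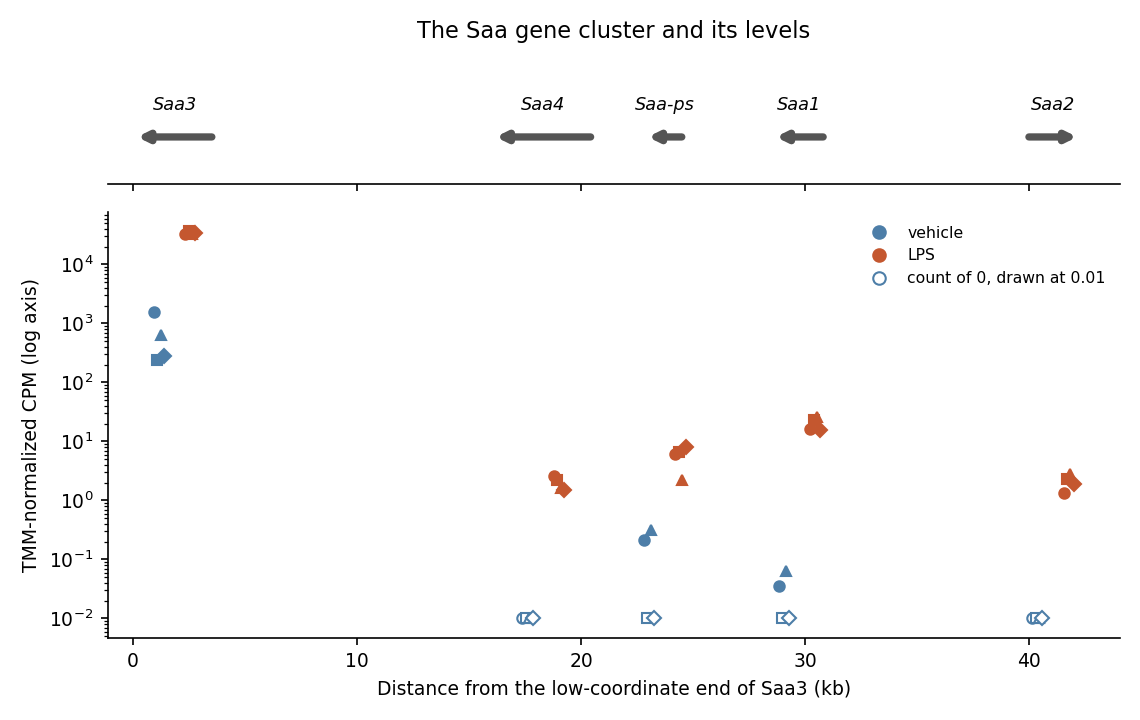
Upper panel: position and direction of the 5 genes of the Saa cluster, as the distance in kb from the low-coordinate end of Saa3. Lower panel: TMM-normalized CPM on a log axis in each of 4 vehicle and 4 LPS libraries, with marker shapes for replicates 1 to 4 and open symbols at the bottom for counts of 0. Every LPS library lies above every vehicle library for all 5 genes, and Saa3 lies above the other 4 in each library.

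Lcn2 (ENSMUSG00000026822, chr2:32384633-32388252, minus strand) showed the largest fitted difference of the members that had more than 3 vehicle counts. Its vehicle levels were 12.6, 2.53, 2.79 and 2.41 CPM in replicates 1 to 4. Its LPS levels were 7032, 5297, 6441 and 5707 CPM. Vehicle replicate 1 stood above the other vehicle libraries, and the groups did not overlap. The log2 difference was 10.23 (SE 0.73), a 1204-fold higher level. The fold was 558 within replicate 1 and 2097 to 2364 within the other replicates, and without vehicle replicate 1 the log2 difference was 11.24, which is over 1.5 times larger on the linear scale.

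Cp (ENSMUSG00000003617, chr3:19957054-20009145, plus strand) was already present in vehicle libraries. It stood at 57.6, 40.3, 87.9 and 26.7 CPM in vehicle replicates 1 to 4 and at 545, 767, 726 and 669 CPM in LPS replicates 1 to 4. The groups did not overlap, and vehicle replicate 3 was the highest of its group. The log2 difference was 3.67 (SE 0.35), a 12.7-fold higher level. Within replicate numbers the fold ran from 8.26 to 25.1.

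Ptx3 (ENSMUSG00000027832, chr3:66219910-66225805, plus strand, inside the body of Veph1 with no shared exonic base) was a low-count gene. It passed the filter through its LPS libraries alone. It had 16, 20, 3 and 12 counts in vehicle and 149, 57, 18 and 65 counts in LPS replicates 1 to 4. These are 0.0952 to 0.692 CPM in vehicle and 0.840 to 8.92 CPM in LPS libraries. The groups were narrowly apart on the TMM scale, with replicate 3 lowest in both. With library totals alone they overlapped, LPS replicate 3 at 0.589 and vehicle replicate 2 at 0.886 CPM. The log2 difference was 3.19 (SE 0.73), a 9.15-fold higher level, and it was 2.49 without LPS replicate 1, which is over 1.5 times smaller on the linear scale.

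Hp (ENSMUSG00000031722, chr8:109575128-109579172, minus strand) was the exception among the 7. Its vehicle levels were 227, 6.78, 25.1 and 8.06 CPM and its LPS levels 210, 44.0, 45.6 and 43.5 CPM in replicates 1 to 4. Replicate 1 was the highest of both groups, and the groups overlapped through vehicle replicate 1 alone, since the other 3 vehicle libraries lay below every LPS library. The log2 difference was 0.36 (SE 1.07), or 1.44 with the replicate number as a block. Within replicate numbers the LPS level was 0.926, 6.49, 1.82 and 5.40 times the vehicle level. No direction can be given for Hp from the groups, since the log2 difference was 2.72 without vehicle replicate 1, -0.58 without LPS replicate 1 and -0.27 with library totals alone.

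Of the 7 genes, 6 had every LPS library above every vehicle library, where 28.7% of all tested genes did, and 1 overlapped, as 39.8% of all did. The choice of members used this contrast, so nothing is read from that count.

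**Figure D2:**
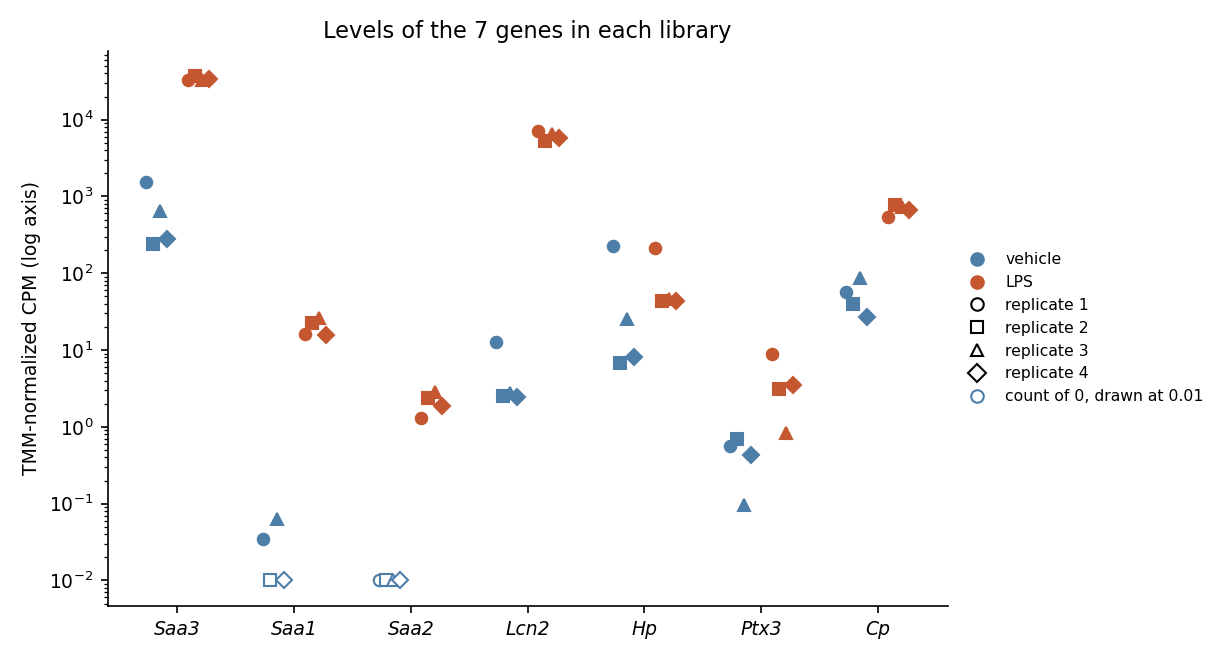
TMM-normalized CPM of each of the 7 genes on a log axis in 4 vehicle and 4 LPS libraries, with marker shapes for replicates 1 to 4 and open symbols at the bottom for counts of 0. The groups are apart for Saa3, Saa1, Saa2, Lcn2, Ptx3 and Cp and overlap for Hp, whose replicate 1 is highest in both groups.

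Per kb of exon, which allows levels of different genes to be compared, Saa3 reached 13107 ± 764 CPM per kb after LPS (SD, n = 4), the highest mean of all genes in the table. Lcn2 followed with 2333 ± 294 CPM per kb at rank 19. Cp had 70.7 ± 10.1, Hp 53.4 ± 51.6, Saa1 8.17 ± 2.11, Ptx3 1.53 ± 1.28 and Saa2 0.834 ± 0.258 CPM per kb. The libraries of neighbours in this order overlapped for Cp and Hp and for Ptx3 and Saa2, and were apart for the others. In vehicle libraries Saa3 was also first, at 260 ± 233 CPM per kb and rank 73. Hp came next at 41.5 ± 66.7, then Cp at 5.55 ± 2.76 and Lcn2 at 1.94 ± 1.91 CPM per kb, with overlap between each of these neighbours. Lcn2 thus lay below Cp on average in vehicle and above it after LPS. The length is the union of annotated exons, 2606 bases for Saa3 against 555 in its representative transcript, so levels per kb of the Saa genes would be higher by transcript length.

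**Figure D3:**
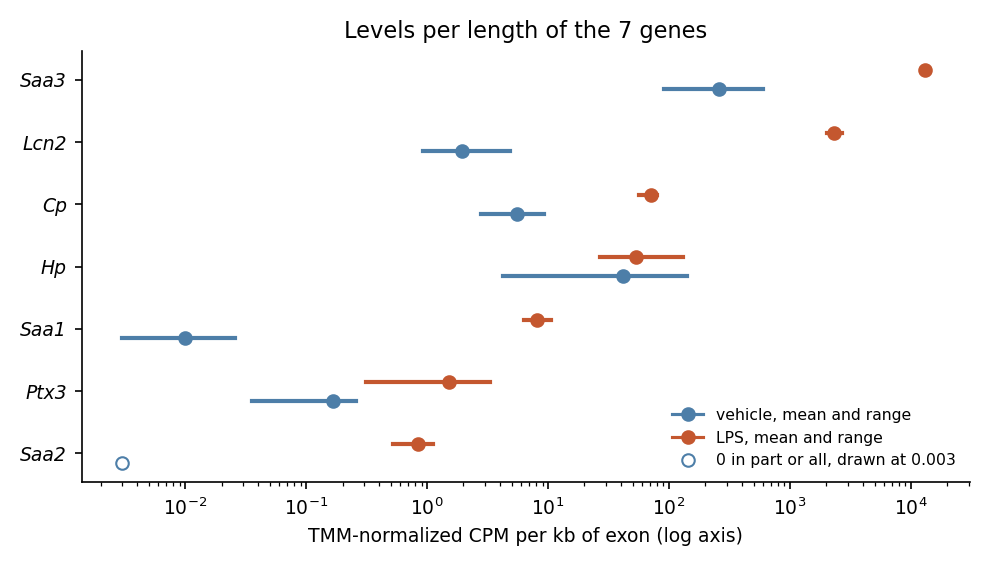
Mean (point) and range (line) over 4 libraries of TMM-normalized CPM per kb of exon, on a log axis, for the 7 genes in vehicle and LPS libraries, with an open symbol at the left edge for a mean of 0. Saa3 and Lcn2 are the highest after LPS at 13107 and 2333 CPM per kb, while in vehicle libraries Hp and Cp lie between them.

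The spread between vehicle libraries was wide for these genes, but not for them alone. Among other genes higher after LPS, Il1rn ran from 4.76 to 32.9 and Fpr1 from 17.4 to 67.5 CPM in vehicle, while Tnf ran from 28.7 to 36.1 CPM. The genes compared below were matched on level only, not on a rise after LPS. The SD of log2 CPM in vehicle was 2.33 for Hp, 1.24 for Saa3, 1.21 for Ptx3, 1.15 for Lcn2 and 0.73 for Cp. Among tested genes of similar vehicle level (within 0.5 log2 units), 100% of 183 genes had a smaller SD than Saa3 and 100% of 2026 a smaller SD than Hp. The share was 99.0% for Cp, 96.2% for Lcn2 and 88.4% for Ptx3. After LPS the SD was 0.08 for Saa3, 0.18 for Lcn2 and 0.22 for Cp, and 1.12 for Hp and 1.39 for Ptx3. These SDs come from the libraries that also served the choice of members, so they are a description.

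**Figure D4:**
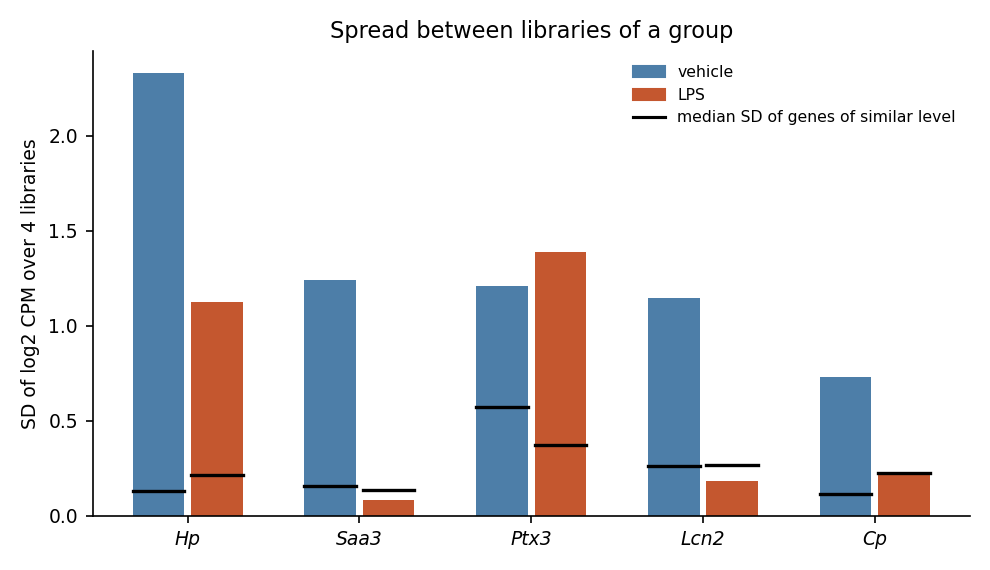
Bars give the SD of log2 CPM over 4 libraries for 5 of the genes in vehicle and LPS libraries, and black lines the median SD of tested genes with a similar level in that group. Vehicle bars stand above their lines for all 5 genes, and LPS bars only for Hp and Ptx3. In LPS the line of Saa3 rests on 1 gene of similar level and that of Lcn2 on 11.

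Vehicle replicate 1 was the highest vehicle library for Saa3, Lcn2 and Hp, and replicate 3 for Cp. Of 569 genes higher after LPS by at least 8-fold, 38.3% were highest in vehicle replicate 1 and 37.8% in replicate 3, against 25.8% and 30.0% of all tested genes. Among all 4191 genes called higher the shares were 27.7% and 38.3%, so for replicate 1 the share stood well above that of all genes in the 8-fold set only. Whether the vehicle cells of these libraries differed in their state or in other cells present was not tested.

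Because Lcn2 and Hp are also known from neutrophil granules, neutrophil markers are given beside them. Of 10 markers, 8 had at most 3 counts in every library, with Mpo and Retnlg at 0 throughout. The summed marker level was 2.09 to 13.9 CPM in vehicle and 130 to 584 CPM in LPS libraries, highest in replicate 1 of both groups. Nearly all of it was Mmp8, a secreted collagenase, at 1.94 to 13.7 CPM in vehicle and 129 to 581 CPM in LPS libraries. Camp, a granule peptide gene, reached 50 counts in LPS replicate 1 and at most 11 elsewhere. The part of this signal in Hp and Lcn2 was not tested.

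Hepatocytes are the classical source of Saa1, Saa2, Hp and Cp. Of 10 hepatocyte markers, 8 had at most 3 counts in every library, with Ahsg, Cps1, Fgb, Serpina1c and Tat at 0 throughout. The summed level was 0.0700 to 34.8 CPM in vehicle and 0 to 0.187 CPM in LPS libraries. The high value was Ttr, known also from choroid plexus, with 1097 counts in vehicle replicate 3, which was also the vehicle library with the highest Cp. The part of that library's other cells in its Cp level was not tested, and without vehicle replicate 3 the log2 difference of Cp was 4.08. Of the other lists of 10 markers, astrocyte markers summed to 21.1 to 52.5 CPM in vehicle and 42.5 to 125 CPM in LPS libraries. Gja1 alone was higher (0.639 to 1.07 and 28.9 to 98.1 CPM) and 3 astrocyte markers were lower by edgeR. Oligodendrocyte precursor markers summed to 27.5 to 143 and 63.8 to 139 CPM. Here too 1 was higher, Vcan (5.52 to 21.8 and 37.2 to 104 CPM), and 3 were lower, among them Cspg4 (11.5 to 24.0 and 0.280 to 1.26 CPM). Fibroblast markers summed to 0.746 to 4.95 and 6.00 to 22.0 CPM, most of the latter being Dcn. Endothelial markers summed to 37.9 to 85.0 and 197 to 272 CPM, with Flt1 and Pecam1 the highest after LPS. At most 3 counts in every library were found for 3 endothelial and 1 fibroblast markers and for no astrocyte or precursor marker. Their part in the levels of Ptx3 and Cp, genes that such cells also make, was not tested.

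The wider acute phase list held 30 genes, of which 12 were tested and 12 had at most 3 counts in every library, including the fibrinogen genes Fga, Fgb and Fgg and the pentraxins Crp and Apcs. Of the 12 tested, edgeR's quasi-likelihood test (adjusted p under 0.05) called 9 as higher and 0 as lower, and left A2m, Cd14 and Serpina3n without a call. Among the 9, Saa4, Serpina3g, Serpina3f, Steap4 and Serping1 passed the filter through their LPS libraries alone. Such genes could hardly be called lower, so the count and the median below lean upward. With at least 10 counts in every library, 4 genes of the list were called higher. Of all 13847 genes, 64.1% were called, 30.3% as higher and 33.8% as lower. The 12 had a median log2 fold change of 3.51, against -0.11 for all genes. The largest rises were in the serpins Serping1, the C1 inhibitor (log2 7.68, SE 0.91), and Serpina3f (6.74, SE 0.46), with Saa4 as above. No p is given for these, since they passed the filter through their LPS libraries alone. Complement factor B, Cfb, rose too (5.30, SE 0.54, adjusted p = 2.31e-05). Complement C3 was high in vehicle at 238 to 891 CPM and rose to 2222 to 2541 CPM (log2 2.16, SE 0.40, adjusted p = 0.00109). The mouse reactive-glia marker Serpina3n was at 0.444 to 5.72 CPM in vehicle and 0.326 to 2.40 CPM in LPS libraries, and its change did not pass the test (log2 -0.50, SE 0.82). Serpina3n passed the filter through its vehicle libraries alone, so no p is given. Without vehicle replicate 4 its log2 difference was 0.67. Several other liver products were near the floor. Orm1, an orosomucoid, had no vehicle count and at most 35 counts in an LPS library, at least 31.2-fold higher over the groups and not tested. The haem carrier gene Hpx had at most 6 vehicle and 17 LPS counts, and the LPS-binding protein gene Lbp at most 24 and 4 counts.

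**Figure D5:**
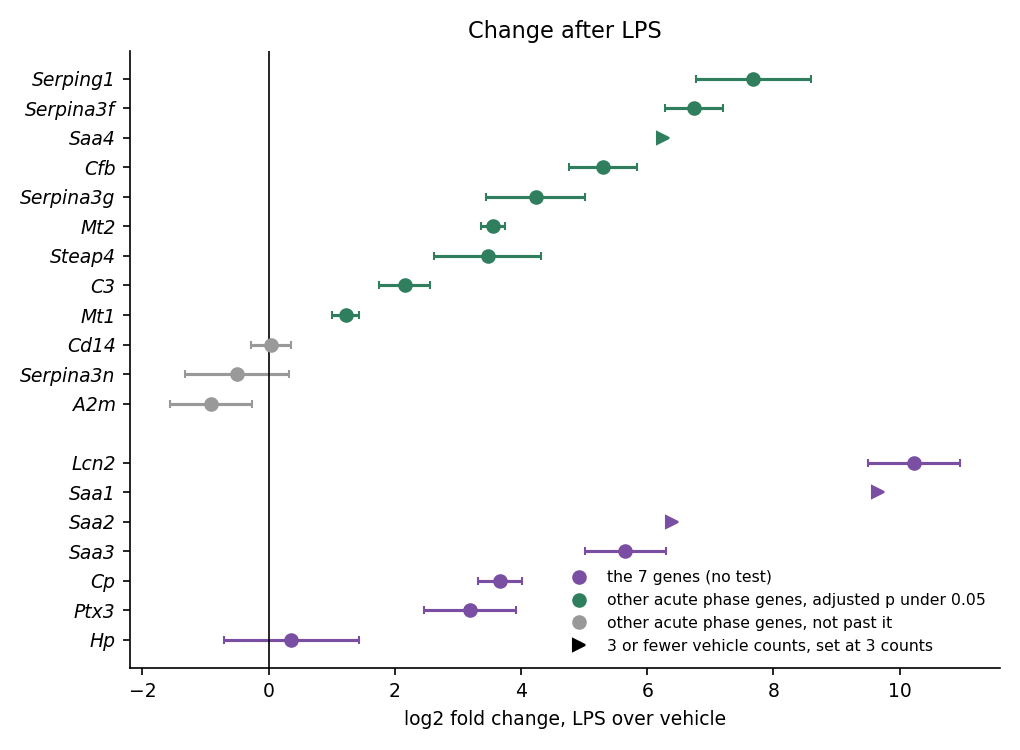
log2 fold change of LPS over vehicle with its SE (bars) for the 12 other acute phase genes that were tested and for the 7 genes, which carry no test. Triangles mark genes with 3 or fewer vehicle counts, set at 3 counts over the group. Of the 12 other genes, 9 passed the test, all above 0. Among these, Saa4, Serpina3g, Serpina3f, Steap4 and Serping1 passed the filter through their LPS libraries alone. Lcn2 lies farthest right at 10.23.

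Most genes on a list of cytokines and receptors of acute phase induction were higher after LPS. The list also held receptor chains and the IL-1 receptor antagonist. Of 19 listed genes, 17 were tested, and 14 were higher and 3 lower, where 30.3% and 33.8% of all tested genes were. The median log2 fold change was 4.33. Among the 14, Il6, Lif, Osmr and Il1r1 passed the filter through their LPS libraries alone. Il6 went from at most 0.420 CPM to 294 to 776 CPM (log2 11.97, SE 0.77), with no p given for that reason. Vehicle replicate 1 held 12 of its 14 vehicle counts, so without that library too few counts remain for a fold. The next largest rises were in Il1a (log2 9.85, adjusted p = 1.26e-05), the IL-1 receptor antagonist Il1rn (9.55, adjusted p = 4.44e-06) and Il10 (7.78, adjusted p = 1.05e-07). Il1b rose from 23.0 to 82.3 CPM in vehicle to 1926 to 5003 CPM (log2 6.38, adjusted p = 1.19e-05), and Tnf rose by 4.33 on the log2 scale (adjusted p = 5.06e-07). One library moved the values of 3 of these genes by over 1.5 times. Without vehicle replicate 1 the log2 difference was 10.55 for Il1a and 6.98 for Il1b, without LPS replicate 3 it was 9.18 for Il1a, and without vehicle replicate 3 it was 10.28 for Il1rn. The 3 that fell were receptor chains of the IL-6 family. Lifr fell by 4.03 (adjusted p = 7.92e-06), the shared signalling chain Il6st fell by 1.92 (adjusted p = 3.13e-05) and the IL-6 receptor Il6ra fell by 0.58 (adjusted p = 0.00349). The oncostatin receptor Osmr rose by 2.82 from a low level, and like Il6 it is given no p.

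Among transcription factors known from acute phase induction and their signalling regulators, 17 of 20 were tested. Of these, 13 were higher and 1 lower, where 30.3% and 33.8% of all tested genes were, and 3 were not called. The median log2 fold change was 1.32. The hepatocyte factor Hnf4a was at 0 in every library. The largest rises were in the STAT3 feedback inhibitor Socs3 (log2 7.13, adjusted p = 4.01e-07), the RNase gene Zc3h12a (3.74, adjusted p = 6.44e-07), the NF-kB cofactor Nfkbiz (3.60, adjusted p = 1.57e-07) and the kinase Jak2 (3.52, adjusted p = 1.55e-07). Stat3 rose by 2.21 on the log2 scale (adjusted p = 6.61e-07), the NF-kB inhibitor Nfkbia by 3.00 (adjusted p = 1.71e-06) and Nfkb1 by 0.82 (adjusted p = 5.47e-05), which was 0.14 and not called with library totals alone. The C/EBP members parted. Cebpb rose from 18.9 to 45.6 CPM to 81.1 to 195 CPM (log2 2.22, adjusted p = 0.000329), and Cebpa fell from 175 to 196 CPM to 7.23 to 10.1 CPM (log2 -4.38, adjusted p = 4.25e-08). Cebpd, at 8.65 to 22.4 CPM in vehicle and 7.23 to 53.6 CPM in LPS libraries, did not pass the test (log2 1.07, SE 0.54, adjusted p = 0.105), though it passed without LPS replicate 3 (log2 1.40).

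Receptors and partners of the 7 products moved in both directions. Of 28 listed genes, 27 matched a symbol in the table and 19 were tested, of which 4 were higher and 11 lower, where 30.3% and 33.8% of all tested genes were, and 4 not called, with a median log2 fold change of -1.17. The formyl peptide receptors, one of which is a known SAA receptor, rose, Fpr1 to 1204 to 1430 CPM (log2 5.16, adjusted p = 9.45e-06) and Fpr2 to 230 to 323 CPM (4.02, adjusted p = 5.92e-05). Another SAA receptor, Tlr2, fell by 3.05 (adjusted p = 4.39e-06). Among the 11 lower, Slc22a17 and Fgf2 passed the filter through their vehicle libraries alone, so no p is given for them. For lipocalin 2, the receptor Slc22a17 fell by 1.78, with a log2 difference of -2.38 without LPS replicate 1, and Lrp2 had at most 12 counts in any library. Its partner Mmp9 ranged from 22.6 to 105 CPM in vehicle and 30.5 to 604 CPM in LPS libraries and did not pass the test (log2 1.77, SE 0.95, adjusted p = 0.128), and its log2 difference was -0.18 without LPS replicate 1.

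For haptoglobin, the scavenger receptor Cd163 had at most 22 counts in any library, while haem oxygenase Hmox1 rose by 2.65 to 2623 to 4114 CPM (adjusted p = 1.81e-05). The iron exporter Slc40a1, which works with ceruloplasmin, fell from 121 to 274 CPM to 10.1 to 22.2 CPM (log2 -3.42, adjusted p = 1.14e-05). For pentraxin 3, its ligand C1q fell, with log2 differences of -2.24 for C1qa (adjusted p = 1.52e-05) and -2.45 for C1qc (adjusted p = 2.41e-05). P-selectin, Selp, had no vehicle count and at most 24 counts in an LPS library, at least 39.1-fold higher. It passed the filter through its LPS libraries alone, so no p is given, and it is one of the 4 counted as higher. The hyaluronan-binding partner Tnfaip6 had at most 8 vehicle and 15 LPS counts and was not tested. One more gene of the list, the ATP receptor P2rx7, was not called without the replicate block (adjusted p = 0.0533) and was called with it (adjusted p = 0.0103). It is named for that reason, after its values were seen.

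Of 22 structural relatives, 12 had at most 3 counts in every library, among them the lipocalins Lcn3, Lcn4, Lcn8, Lcn9, Lcn10 and Lcn12. Of 6 that were tested, 2 were higher, 2 lower and 2 not called, with a median log2 fold change of -0.79. Of all tested genes 30.3% were higher and 33.8% lower, so nothing is read from this split. Saa4 was one of the higher, and the lipocalin Ambp the other (log2 3.84). Both passed the filter through their LPS libraries alone, so no p is given. The neuronal pentraxin genes Nptxr (log2 -3.58) and Nptx1 (log2 -2.22) fell. They passed the filter through their vehicle libraries alone, so no p is given for them either. Nptx1 lost its call without vehicle replicate 1 (log2 -2.04) or 4 (log2 -2.08), and its log2 difference was -2.81 without LPS replicate 2. Heph, the membrane-bound relative of ceruloplasmin, was at 0.462 to 0.735 CPM in vehicle and 0 to 1.26 CPM in LPS libraries and was not called (log2 -0.72, SE 0.88). It held 26 LPS counts in all and passed the filter through its vehicle libraries alone, so no p is given. Without LPS replicate 1 its log2 difference was -2.75, from few LPS counts.

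The genes with the most similar profile over the 8 libraries, by root mean square difference of log2 CPM after centring each gene, were found among all 13847 tested genes. For Saa3 they were Adm (difference 0.34), A930007I19Rik (0.41) and Adora2a (0.43). For Lcn2 they were Ptgs2 (0.31), Gstt4 (0.41) and Upp1 (0.58). Like Lcn2, the prostaglandin synthase gene Ptgs2 was highest in vehicle replicate 1, at 12.5 CPM against 3.73 to 5.39 CPM in the others. For Cp they were Gm44876 (0.21), the kinase gene Pim1 (0.24) and Batf2 (0.25), and for Saa1 they were Il1rn (0.43), Edn1 (0.47) and Slfn4 (0.49). Matches for Saa2 were Gm36723 (0.31), Gm10610 (0.32) and Gm28347 (0.35), which like Saa2 had no vehicle count. Ptx3 was less closely matched, by Ptprn (0.66), Ppfia3 (0.77) and Draxin (0.78). Hp was matched by Ly6i (0.59), Wdr66 (0.60) and Acp5 (0.62). Acp5 had 12.6 CPM in vehicle replicate 1 and 0.888 to 2.35 CPM in the other vehicle libraries. All matches were chosen on these same values. A shared highest library or a shared absence from vehicle therefore follows from the choice, and nothing is read from it.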

How the data were processed

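Primary mouse microglia treated with LPS or vehicle (4 libraries each) were compared from raw counts per Ensembl gene, deposited by the authors in one table. The authors filtered and counted reads with HTSeqGenie after GSNAP alignment to GRCm38 and kept uniquely aligned reads only. The annotation release and the strand setting are not given in the sources used here, and the labels and the methods name different kits. Groups and replicate numbers came from the sample titles, which do not say whether replicates were separate cultures, so p-values measure the spread between these samples.

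Counts were tested with edgeR 4.0.16 in R 4.3.3 (TMM scaling, filterByExpr at min.count 10 and min.total.count 15, two-sided quasi-likelihood test, Benjamini-Hochberg adjustment over 13847 genes). Symbols were found for 52403 of 52636 identifiers, and the other 233 held 0.0155% of the counts. CPM used the filtered library size times its TMM factor, and log2 CPM a pseudocount of 0.5 counts. Folds against a group at 0 used 3 counts over the group. The fits were tested on simulated data. The 7 members and all gene lists were chosen with earlier results of these data known. Beside the members, the named genes were up to 4 rises and 4 falls per list past an adjusted p of 0.05, preset genes of each list, and the 3 closest profiles per member. Marker genes, floor genes and the genes at the ends of a range were named after their values were seen. Not every gene that this rule names is reported here.

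Vehicle and LPS samples of one number share that number in the titles. Their deviations from the group means correlated at 0.352, 0.165, 0.180 and 0.140 over 8382 genes for numbers 1 to 4. The main fit did not use the numbers, so its SEs and p-values ignore any pairing. The folds within replicate numbers and an alternative fit with the replicate block take the numbers as pairs. Vehicle 4 with LPS 2 (0.151) and vehicle 2 with LPS 4 (0.146) correlated as much, so numbers 2 and 4 are not told apart by this check. Other alternatives were DESeq2 1.42.0, upper quartile scaling, library totals, other filters and thresholds, transcript length and leaving out libraries. No library pair of a group agreed within sampling noise, but numbers 2 and 4 were closest in both groups. The chi-square per degree of freedom was 6.98 for LPS 2 and 4 and 11.0 for vehicle 2 and 4. It was 36.0 to 155 for the other pairs. Whether numbers 2 and 4 share an origin was not tested, and SEs and p-values take all libraries as independent. Between 20071921 and 30604447 counts per library made genes of a few counts imprecise.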

Additional observations from a re-analysis of the deposited data

Results flagged for a closer look

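In 6 of 127 groups of 4 libraries checked, over 68 genes, the gap from one library to its nearest neighbour took up nearly the whole range of log2 CPM by Dixon's criterion. Chance alone gives about 1 in 20 such groups, so this number is near what chance gives. Lcn2 was at 12.6 CPM in vehicle replicate 1 and at 2.41 to 2.79 CPM in the other vehicle libraries. Hp was at 210 CPM in LPS replicate 1 and at 43.5 to 45.6 CPM in the other LPS libraries. Adora2a, a close profile match of Saa3, was lowest in LPS replicate 3 at 12.6 CPM against 26.7 to 30.1 CPM. Draxin, a match of Ptx3, was lowest in vehicle replicate 3 at 0.317 CPM against 1.31 to 1.46 CPM. Jak2 was lowest in vehicle replicate 4 at 57.5 CPM against 69.8 to 71.6 CPM, and Nfkbiz in LPS replicate 3 at 568 CPM against 709 to 717 CPM.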

How the results depend on the processing

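Of the members, Hp was the one whose direction turned. Its log2 difference was 0.36 with TMM, 0.44 with DESeq2 size factors, 0.24 with upper quartile scaling, -0.27 with library totals and 1.44 with the replicate block, and ran from -0.58 to 2.72 when one library was left out. The ranges with one library left out were 5.40 to 6.47 for Saa3, 10.03 to 11.24 for Lcn2, 2.49 to 3.55 for Ptx3, 3.47 to 4.08 for Cp, 9.20 to 9.76 for the pooled log2 ratio of Saa1 (9.65 with all libraries) and 5.94 to 6.54 for that of Saa2 (6.39 with all, set against 3 counts). With library totals the values were 8.96 for Saa1, 5.70 for Saa2 and 3.01 for Cp. Leaving out both libraries of one number, chosen after seeing the data, gave 9.19 (number 2) and 9.02 (number 3) for Saa1, 5.74 (number 3) for Saa2, and 11.13 for Lcn2 and 1.73 for Hp (number 1). Per kb of the longest transcript, LPS levels were 15526 for Saa3, 4453 for Lcn2 and 148 for Cp.

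Library totals, tried on the counts of calls after seeing the data, left 1988 genes higher and 8457 lower, against 4191 and 4686 with TMM, so that 19.0% and not 47.2% of calls were higher. A log2 fold change of at least 1 left 2224 higher and 2998 lower. With at least 10 counts in every library, 4 other acute phase genes were higher, and 0 structural relatives were called higher and 0 lower, because fewer genes are tested. At an adjusted p under 0.01, 1 relative was lower. One transcription factor was lower with TMM, 2 with upper quartile scaling and 3 with library totals, and 1 to 2 with one library left out. Between 1 and 3 relatives were lower with one library left out, 1 without vehicle replicate 1 or 4, when Nptx1 lost its call, and 3 without LPS replicate 1 or 2. The log2 difference turned for 3 genes that had not passed the test. With one library left out it ran from -0.14 to 1.85 for Acp5 (-0.03, -0.04 and -0.14 without vehicle replicate 2, vehicle replicate 4 and LPS replicate 1), from -0.18 (without LPS replicate 1) to 2.35 for Mmp9 and from -0.78 to 0.67 (without vehicle replicate 4) for Serpina3n. Acp5 was at -0.39 with library totals. Nfkb1 lost its call with library totals (log2 0.14). With the replicate block 4110 genes were higher and 4934 lower, and beside P2rx7 the block changed no call of a listed gene. Ly6i (log2 1.88) and Wdr66 (1.81), profile matches of Hp, passed with the block but not without it. The cause of these differences was not tested. Genes near 3 counts are limited by depth.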
